A study of Mus musculus with 12 samples.

Results

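The sarcoplasmic reticulum is the calcium store of heart muscle cells, and this account describes 10 genes of its calcium handling in mouse embryonic hearts: Pln, Sln, Atp2a2, Casq2, Hrc, Srl, Ryr2, Trdn, Jph2 and Slc8a1. They were chosen by name, with earlier results of these data known. All 10 were measured, and they are 10 of 19938 genes tested. In a heart muscle cell a pump driven by ATP loads the store with calcium, binding proteins hold it there, and a release channel at junctions with the surface membrane lets it out for each beat. Small membrane proteins restrain the pump, and an exchanger in the surface membrane removes the calcium that entered the cell. Phospholamban, triadin and calsequestrin are among the proteins of this system whose loss or mutation disturbs rhythm or contraction in the adult heart.

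The hearts were dissected at E8.75, when the heart tube loops and beats. Wild type (WT) hearts, hearts labelled as lacking the cardiac transcription factor Nkx2-5 (Nkx2-5 KO), hearts labelled as lacking the T-box factor Tbx5 (Tbx5 KO) and hearts labelled as lacking both (double KO) were each measured on 3 Affymetrix arrays. The 3 arrays of a group are numbered as biological replicates in their titles, and no driver, Cre or other allele is given. How many hearts an array holds and which part of either gene was removed are not given in the sources used here. Values are log2 expression levels as deposited, so a difference of 1 is a doubling of signal, and group values are means ± SD over 3 arrays. A change is a difference of group means ± its standard error (SE) from a limma model fitted to all genes, and a gene is said to rise or fall where its adjusted p was under 0.05. Each probe set has its own brightness, so no gene is called higher or lower than another.

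Array medians ran from 8.05 to 8.25, and the standard deviation over probe sets from 2.05 to 2.19. Of 12 cardiac muscle markers, 0 were called in either single KO and 3 rose and 2 fell in the double KO, where 9.05% of all genes rose and 14.4% fell, and their summed level on the log2 scale lay between 16.89 and 17.05 on the 12 arrays. As the part removed is not given, the targeted genes were not read as a check of the genotypes. Nkx2-5 was 9.35 ± 0.01 in WT, 8.94 ± 0.21 in Nkx2-5 KO and 9.08 ± 0.12 in double KO hearts. It fell in Nkx2-5 KO (-0.41), and its double KO change of -0.27 was not called. Nkx2-5 KO and double KO arrays reached at most 9.21, and WT and Tbx5 KO arrays lay at 9.31 or above. Tbx5 was 10.06 ± 0.14 in WT and 10.53 ± 0.17 in Tbx5 KO hearts, a change of 0.47 that was not called. In double KO hearts Tbx5 was 10.60 ± 0.26, a rise of 0.54 (adjusted p = 0.0193). Sex-linked RNA divided the groups. Xist, an RNA of the inactive X chromosome, ranged from 11.46 to 12.32 in WT and Tbx5 KO hearts and from 6.44 to 8.16 in the Nkx2-5 KO and double KO, so embryo sex and the Nkx2-5 genotype cannot be told apart here. Tbx5 KO against WT and double KO against Nkx2-5 KO compare groups that are alike in Xist. Among 5 trophoblast and decidua markers, 2 rose in Tbx5 KO (0.998% of all genes rose there), where their summed level was 10.88 to 11.26 against 8.37 to 8.59 in WT. The 7 erythroid markers measured had 4 members that fell in double KO, where 14.4% of all genes fell, with a summed level of 13.01 to 14.36 against 14.38 to 15.55 in WT. The part of these differences in the results on calcium genes was not tested.

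Pln and Casq2 fell in all 3 KO groups, and Atp2a2 and Trdn fell in the Tbx5 KO and in the double KO. Hrc rose in the double KO. Ryr2, Slc8a1, Jph2, Sln and Srl passed the test in 0 of the 7 comparisons made. Against WT, 2 of the 10 genes were called in Nkx2-5 KO, both lower, where 4.43% of all genes were called (1.84% higher and 2.59% lower), or 0.848% when Nkx2-5 KO replicate 1 was left out. In Tbx5 KO 4 were called, all lower, beside 2.31% of all genes called (0.998% higher and 1.31% lower). That share was 1.06% to 1.47% without WT replicate 1, WT replicate 3 or any 1 Tbx5 KO array, and 4.68% with array weights. The double KO had 1 higher and 4 lower, beside 23.4% of all genes called, 9.05% higher and 14.4% lower. Quantile normalization again turned the balance of calls over all genes, from 367 higher and 517 lower to 533 and 443 in Nkx2-5 KO, from 199 and 262 to 265 and 209 in Tbx5 KO, and from 1804 and 2868 to 2386 and 2244 in double KO. The median change of the 10 genes was 0.11, -0.05 and 0.03 in Nkx2-5 KO, Tbx5 KO and double KO, and that of all genes was 0.0048, 0.0096 and 0.064. The median thus lay near 0 although single members moved by more than 1 log2 unit. In bulk hearts, fewer muscle cells and less RNA per muscle cell cannot be told apart.

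**Figure D1:**
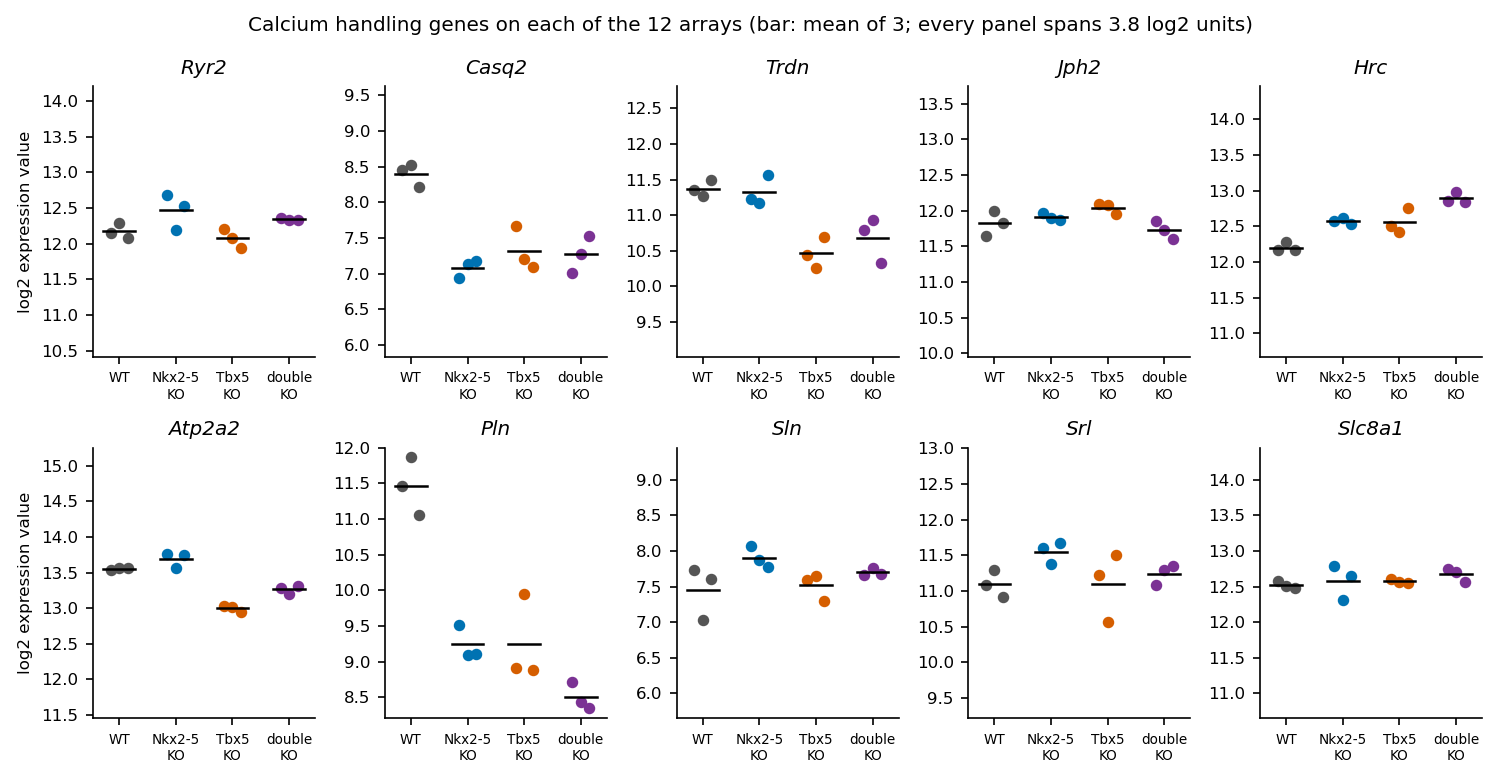
Each panel plots the log2 expression level of 1 gene (vertical axis, log2 units, 3.8 units in every panel) on the 3 arrays of each of the 4 groups (points) with the group mean (bar). Pln lies at 11.05 to 11.86 in WT and at 8.34 to 9.95 in the KO groups, and Ryr2, Slc8a1 and Jph2 vary by less than 1 unit over all arrays.

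Loading of the store was split: the pump gene fell modestly in the Tbx5 KO and the double KO, and the gene of its inhibitor fell strongly in all 3 KO groups. Atp2a2 encodes SERCA2, the pump that returns calcium to the store. Its levels were 13.54, 13.56 and 13.57 on WT arrays, 13.76, 13.56 and 13.75 on Nkx2-5 KO arrays, 13.03, 13.02 and 12.95 on Tbx5 KO arrays and 13.28, 13.20 and 13.32 on double KO arrays. All 6 arrays labelled as lacking Tbx5 lay below the other 6. Atp2a2 fell by 0.56 ± 0.08 in Tbx5 KO (1.47-fold, adjusted p = 0.00512), a call that held under every alternative tried. In the double KO it fell by 0.29 ± 0.08 (1.22-fold, adjusted p = 0.0275). That call ended without WT replicate 1, 2 or 3 or double KO replicate 1 or 2 (adjusted p 0.0579 to 0.1), with only the arrays compared (0.0566), and after quantile normalization again, where the change was -0.15 (0.227). In Nkx2-5 KO the change was 0.14 ± 0.08, with a 95% interval of -0.05 to 0.32 (adjusted p = 0.469). Tested directly, Atp2a2 was lower in Tbx5 KO than in Nkx2-5 KO by 0.69 ± 0.08 (adjusted p = 0.000658).

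Pln encodes phospholamban, the small protein that holds SERCA2 back until it is phosphorylated, and it had the largest change of the 10 genes in each KO group. Its levels were 11.46, 11.86 and 11.05 for WT hearts, 9.52, 9.09 and 9.11 for Nkx2-5 KO hearts, 8.90, 9.95 and 8.88 for Tbx5 KO hearts and 8.71, 8.44 and 8.34 for double KO hearts. No KO array reached the lowest WT array, and the 3 double KO arrays lay below all 6 single KO arrays. Pln fell in all 3, with a change of -2.22 ± 0.27 in Nkx2-5 KO (4.66-fold, adjusted p = 0.00119), -2.21 ± 0.27 for Tbx5 KO (4.64-fold, adjusted p = 0.00105) and -2.96 ± 0.27 in the double KO (7.79-fold, adjusted p = 2.36e-05). Those calls held under every alternative tried. Between the single KOs the difference was 0.01, with a 95% interval of -0.58 to 0.59. The further step to the double KO was -0.74 ± 0.27 from Nkx2-5 KO (adjusted p = 0.131) and -0.75 ± 0.27 from Tbx5 KO (0.102), neither of them called. The first passed without Tbx5 KO replicate 2 (0.0453) and with only the arrays compared (0.0414).

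The balance of inhibitor to pump was also followed within each array, as the departure of Pln from its WT mean minus that of Atp2a2, a measure chosen after the values had been seen. It was -2.36 ± 0.20 (SD, n = 3) for Nkx2-5 KO, -1.66 ± 0.59 for Tbx5 KO and -2.67 ± 0.20 for double KO. WT arrays spread from -0.42 to 0.40, and no KO array came above -0.98. An exact two-sided permutation test of each KO group against WT gave p = 0.1. That is the lowest value 3 against 3 arrays allow, so the test could not decide, and the values are given as a description. Sln encodes sarcolipin, a second small inhibitor of the pump that is known from atrial muscle. Its levels lay between 7.04 and 8.07 on all arrays, below the array medians, and whether they exceed background was not tested. The Sln changes were 0.45 in Nkx2-5 KO (95% interval 0.10 to 0.80, adjusted p = 0.151), 0.06 in Tbx5 KO (-0.29 to 0.41) and 0.24 in double KO (-0.11 to 0.60).

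Of the proteins that hold calcium in the store, the gene of calsequestrin 2 fell and that of the histidine-rich calcium binding protein rose. Casq2 encodes calsequestrin 2, the main calcium buffer of the cardiac store, which also tunes the release channel. Its levels were 8.45, 8.53 and 8.21 on WT arrays, 6.94, 7.14 and 7.17 on Nkx2-5 KO arrays, 7.66, 7.20 and 7.09 on Tbx5 KO arrays and 7.01, 7.27 and 7.53 on double KO arrays. The KO groups overlapped each other and not WT. Casq2 fell too, with a change of -1.31 ± 0.16 in Nkx2-5 KO (2.48-fold, adjusted p = 0.00141), -1.08 ± 0.16 for Tbx5 KO (2.11-fold, adjusted p = 0.00501) and -1.12 ± 0.16 in the double KO (2.18-fold, adjusted p = 0.0004). All 3 calls held under every alternative tried. The KO levels lie below the array medians, and whether they exceed background was not tested.

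Hrc encodes the histidine-rich calcium binding protein, which binds calcium in the store and contacts both triadin and SERCA2. Its levels were 12.16, 12.28 and 12.16 for WT hearts, 12.58, 12.62 and 12.53 for Nkx2-5 KO hearts, 12.50, 12.42 and 12.75 for Tbx5 KO hearts and 12.86, 12.98 and 12.84 for double KO hearts. All single KO arrays lay above all WT arrays and below all double KO arrays. Hrc rose by 0.69 ± 0.10 in the double KO (1.62-fold, adjusted p = 0.000348), under every alternative too. In Nkx2-5 KO the change was 0.37 ± 0.10 (adjusted p = 0.0514) and in Tbx5 KO 0.36 ± 0.10 (0.0869). The first passed in 6 of 20 alternatives (0.0122 to 0.0495) and the second in 3 (0.0317 to 0.0462), quantile normalization again, an intensity trend and array weights among them for both. Srl encodes sarcalumenin, a calcium binding glycoprotein of the store that acts on the pump. It was 11.09 ± 0.19 on WT arrays, 11.55 ± 0.16 on Nkx2-5 KO arrays, 11.10 ± 0.49 on Tbx5 KO arrays and 11.24 ± 0.14 on double KO arrays. Its changes were 0.45 (95% interval 0.03 to 0.88, adjusted p = 0.246), 0.00 (-0.42 to 0.43) and 0.15 (-0.28 to 0.58).

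**Figure D2:**
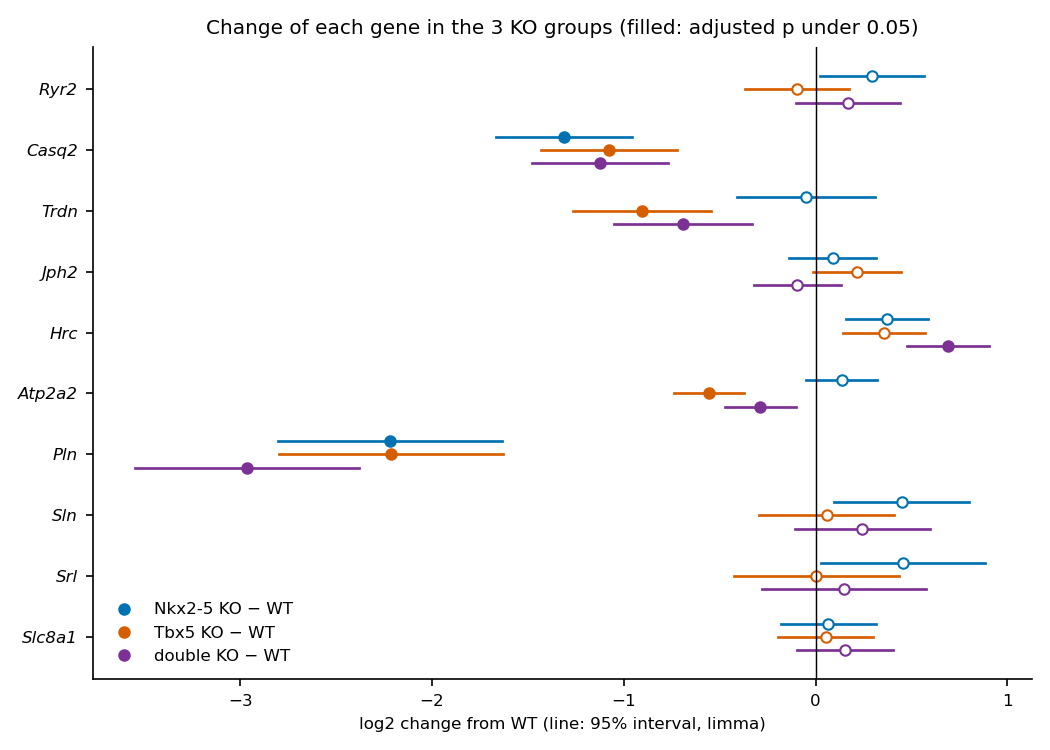
Log2 change from WT (horizontal axis) of each of the 10 genes in the 3 KO groups (colours), with 95% intervals from limma as lines and filled points where the adjusted p was under 0.05. Pln and Casq2 are filled at the left in all 3 colours (-2.96 to -1.08), Atp2a2 and Trdn in the colours of Tbx5 KO and double KO, and Hrc at the right in double KO (0.69).

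The 250 bases before the annotated start of Pln and Casq2, the genes that fell in every KO group, and of Hrc, which rose in the double KO, are shown 5′ to 3′ on the gene's strand from the RefSeq table of GRCm38.p6. They were searched on both strands for AAGTG, the core of sites that Nkx2-5 is known to bind, and for its longer form TNAAGTG, for the T-box core AGGTGT, for the GATA motif AGATAA and for the MEF2 motif. Capitals mark AAGTG, or CACTT where it lies on the other strand.
Pln, chr10:53337436-53337685, plus strand: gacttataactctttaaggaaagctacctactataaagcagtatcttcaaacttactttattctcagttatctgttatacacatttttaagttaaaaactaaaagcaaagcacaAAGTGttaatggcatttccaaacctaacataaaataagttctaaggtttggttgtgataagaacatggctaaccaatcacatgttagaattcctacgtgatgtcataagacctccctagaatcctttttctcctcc
Casq2, chr3:102086165-102086414, plus strand: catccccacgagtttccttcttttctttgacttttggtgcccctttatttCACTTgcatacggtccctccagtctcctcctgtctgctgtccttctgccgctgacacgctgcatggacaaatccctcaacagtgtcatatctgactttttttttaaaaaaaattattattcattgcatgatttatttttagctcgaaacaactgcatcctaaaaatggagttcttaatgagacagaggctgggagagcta
Hrc, chr7:45335019-45335268, plus strand: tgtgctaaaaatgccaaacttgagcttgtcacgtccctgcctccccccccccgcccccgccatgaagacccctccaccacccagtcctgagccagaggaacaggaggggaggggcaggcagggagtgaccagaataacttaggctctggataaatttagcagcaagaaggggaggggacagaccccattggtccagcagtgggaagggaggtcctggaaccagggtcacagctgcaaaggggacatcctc
AAGTG lay 136 to 132 bases before the start of Pln and, on the other strand, 200 to 196 bases before that of Casq2. The Hrc sequence held 0 matches to any of the 5 motifs. Of the 10 genes, 6 had a promoter in the table, with 7 starts, and AAGTG was also in that of Jph2, a gene that was not called. AGATAA lay 183 to 178 bases before Pln and 68 to 63 bases before Slc8a1, and the T-box core AGGTGT, the longer form TNAAGTG and the MEF2 motif had 0 matches in the 7 windows. Of 15563 promoters of the same length, 39.4% held AAGTG, 9.10% TNAAGTG (each of them also an AAGTG match), 10.9% AGGTGT and 3.12% the MEF2 motif, and 1361 of them held AGATAA. A match is a description of the letters, and binding was not measured on these arrays.

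At the site of calcium release, the gene of the anchoring protein triadin fell in the Tbx5 KO and the double KO, and those of the release channel and of junctophilin did not pass the test. Trdn encodes triadin, which ties calsequestrin to the release channel. Its levels were 11.35, 11.27 and 11.50 for WT hearts, 11.23, 11.16 and 11.57 for Nkx2-5 KO hearts, 10.44, 10.26 and 10.69 for Tbx5 KO hearts and 10.79, 10.93 and 10.33 for double KO hearts. All 6 arrays labelled as lacking Tbx5 lay below the other 6. Trdn fell by 0.91 ± 0.17 in Tbx5 KO (1.88-fold, adjusted p = 0.0143) and changed by -0.69 ± 0.17 in the double KO, also a fall (1.61-fold, adjusted p = 0.00958). In Nkx2-5 KO the change was -0.05 ± 0.17 (adjusted p = 0.939), and Tbx5 KO was lower than Nkx2-5 KO by 0.86 ± 0.17 (adjusted p = 0.0149). The Tbx5 KO call did not survive the omission of WT replicate 3 or Tbx5 KO replicate 1 or 2 (0.0556 to 0.0643), and the double KO call was lost after quantile normalization again (0.0882) and with the mean of all probe sets (0.134). The difference between the single KOs ended with that mean (0.354), without Nkx2-5 KO replicate 3 and without Tbx5 KO replicate 1 or 2 (0.0644 to 0.0704).

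Trdn has 19 probe sets with exactly this symbol, of which the brightest stands for the gene above, and their mean levels ran from 4.81 to 10.96. Fitted on their own, 18 of 19 were below 0 in Nkx2-5 KO, and 17 were below 0 in Tbx5 KO and again in the double KO. The same 2, the brightest pair, fell in Tbx5 KO and in the double KO, and 0 fell in Nkx2-5 KO. The second of them changed by -1.13 in Tbx5 KO and by -0.62 in the double KO. The median over the 19 was -0.35 for Nkx2-5 KO, -0.66 for Tbx5 KO and -0.34 for the double KO. For double KO against Nkx2-5 KO it was 0.008, where the brightest gave -0.64.

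**Figure D3:**
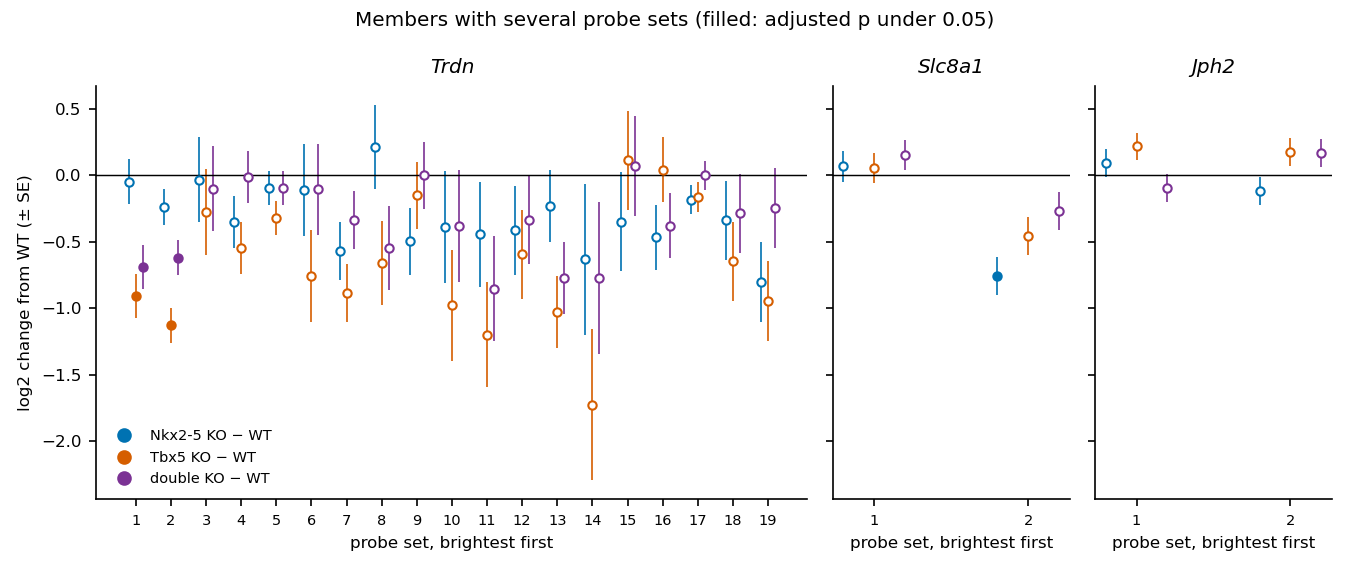
Log2 change from WT ± SE (vertical axis) of every probe set of Trdn (19), Slc8a1 (2) and Jph2 (2), ordered from the brightest to the dimmest along the horizontal axis, with 1 colour for each KO group and filled points where the adjusted p was under 0.05. The 2 brightest Trdn probe sets are filled below 0 in Tbx5 KO and double KO, and the dimmer Slc8a1 probe set is filled at -0.76 in Nkx2-5 KO.

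Ryr2 encodes the ryanodine receptor, the release channel itself. Its levels were 12.15, 12.29 and 12.07 on WT arrays, 12.69, 12.19 and 12.53 on Nkx2-5 KO arrays, 12.21, 12.07 and 11.94 on Tbx5 KO arrays and 12.36, 12.33 and 12.33 on double KO arrays. Its changes were 0.29 in Nkx2-5 KO (95% interval 0.02 to 0.57, adjusted p = 0.231), -0.10 in Tbx5 KO (-0.37 to 0.17) and 0.17 in double KO (-0.10 to 0.44). The 3 double KO arrays lay above all WT and Tbx5 KO arrays, and the Nkx2-5 KO arrays overlapped each other group. None of these intervals reached below -0.37 on this probe set. The Nkx2-5 KO change passed with array weights (0.43, adjusted p = 0.0337) and the double KO change after quantile normalization again (0.40, adjusted p = 0.04). Tbx5 KO against Nkx2-5 KO was -0.39 ± 0.12 for Ryr2 (adjusted p = 0.152), and it passed with array weights (0.0283) and without Nkx2-5 KO replicate 2 (0.0315). Jph2 encodes junctophilin 2, which holds the store membrane close to the surface membrane. It was 11.82 ± 0.17 for WT hearts, 11.91 ± 0.05 for Nkx2-5 KO hearts, 12.04 ± 0.08 for Tbx5 KO hearts and 11.73 ± 0.12 for double KO hearts. Its changes were 0.09 (95% interval -0.14 to 0.32), 0.22 (-0.01 to 0.44) and -0.09 (-0.32 to 0.13). Between double KO and Tbx5 KO, Jph2 differed by -0.31 ± 0.10 (adjusted p = 0.0811), which passed with centred arrays, an intensity trend or array weights (0.0457 to 0.0488).

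Slc8a1 encodes the sodium calcium exchanger of the surface membrane, which carries calcium out of the cell. Its brighter probe set gave 12.57, 12.51 and 12.48 on WT arrays, 12.79, 12.31 and 12.65 on Nkx2-5 KO arrays, 12.61, 12.56 and 12.54 on Tbx5 KO arrays and 12.75, 12.70 and 12.56 on double KO arrays. Its changes were 0.07 (95% interval -0.18 to 0.31), 0.05 (-0.20 to 0.30) and 0.15 (-0.09 to 0.40), and the last passed after quantile normalization again (0.37, adjusted p = 0.0347). The 2 probe sets of this gene disagreed. The dimmer one fell by 0.76 ± 0.14 in Nkx2-5 KO (adjusted p = 0.016) and changed by -0.46 in Tbx5 KO (0.134) and -0.27 in the double KO (0.199). Which of them follows the exchanger's RNA more closely was not tested. The 2 probe sets of Jph2 had changes between -0.12 and 0.22, none of them called.

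The KO groups were also compared with each other. Of the 10, 2 were called between Tbx5 KO and Nkx2-5 KO, Atp2a2 and Trdn, beside 2.39% of all genes, and the same 2 between double KO and Nkx2-5 KO, beside 5.56%. Those shares were as low as 1.27% without Nkx2-5 KO replicate 1 and 2.61% without double KO replicate 2, and 7.14% and 12.4% with array weights. The latter comparison asks what loss of Tbx5 adds where Nkx2-5 is already absent, in groups alike in Xist. Atp2a2 was lower there by 0.42 ± 0.08 (adjusted p = 0.0131), which ended without Nkx2-5 KO replicate 1 (0.0619) or double KO replicate 2 (0.0578) and with only the arrays compared (0.0715). Trdn was lower by 0.64 ± 0.17 (adjusted p = 0.0427), a call that ended in 13 of 20 alternatives, among them the mean of all probe sets (0.939) and leaving out any array except Tbx5 KO replicate 2 or 3 or double KO replicate 2 (0.0521 to 0.109). Between double KO and Tbx5 KO, 1 of 10 was called, Hrc, higher by 0.33 ± 0.10 (adjusted p = 0.0483), beside 10.7% of all genes (6.52% without double KO replicate 2). That call ended in 14 of 20 alternatives, including centred arrays (0.103) and the omission of any array except Tbx5 KO replicate 3 (0.0548 to 0.163). Atp2a2 was higher in double KO than in Tbx5 KO by 0.27 ± 0.08 (adjusted p = 0.0642), which passed after quantile normalization again (0.0132) and with an intensity trend (0.00607).

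Whether the 2 losses add was tested by the non-additive term, which takes the summed log2 changes of the single KOs from that of the double KO. It was called for 1 of the 10 genes, Casq2, beside 0.547% of all genes (1.72% with array weights, and 0.241% when Nkx2-5 KO replicate 1 was left out). The single KO changes of Casq2 sum to -2.39 and the double KO change was -1.12, a term of 1.26 ± 0.23 (95% interval 0.76 to 1.76, adjusted p = 0.0339). Put by gene, loss of Nkx2-5 went with a Casq2 change of -1.31 where Tbx5 was present and -0.05 where it was absent, and loss of Tbx5 with -1.08 and 0.19. The call ended after quantile normalization again (0.0581), with a replicate block (0.0822), and without WT replicate 1 or 2, any Nkx2-5 KO array, Tbx5 KO replicate 2 or 3 or double KO replicate 2 (0.0599 to 0.0991). Pln had a sum of -4.43 against a measured -2.96, a term of 1.47 ± 0.38 (adjusted p = 0.147), which passed without Tbx5 KO replicate 2 (1.82, adjusted p = 0.0238). For Hrc the single KO changes sum to 0.73, the double KO change was 0.69, and the term was -0.04, with a 95% interval of -0.34 to 0.26. The terms of Atp2a2 (0.13, adjusted p = 0.823) and Trdn (0.27) were not called.

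**Figure D4:**
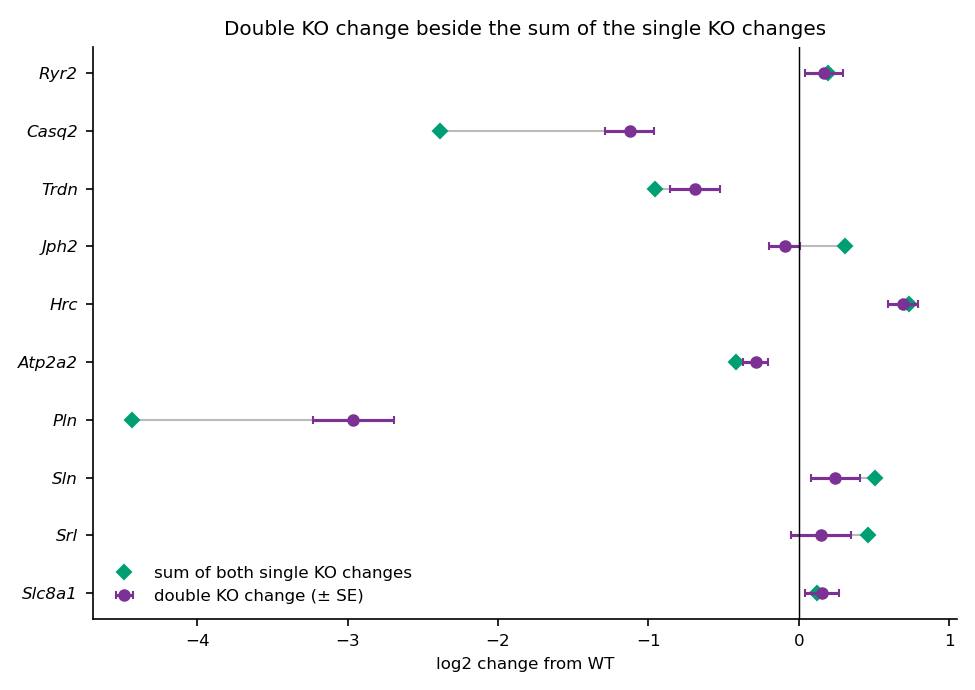
For each of the 10 genes, the log2 change from WT (horizontal axis) in the double KO (circle, ± SE) and the 2 single KO changes added up (diamond), joined by a line. The gap is widest for Pln (-2.96 against -4.43) and Casq2 (-1.12 against -2.39), and the 2 marks nearly coincide for Hrc (0.69 against 0.73).

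The genes most like the 3 members with the largest falls were taken by Pearson's r over the 12 arrays, as a description of levels that share the group differences and the arrays. For Pln they were Tmem163 (r = 0.951), Nppb, the gene of brain natriuretic peptide (0.947), Cavin2, a protein of caveolae (0.944), and Pcolce (0.935). The Nppb change was -2.80 for Nkx2-5 KO, -3.19 for Tbx5 KO and -3.46 for the double KO, beside the -2.22, -2.21 and -2.96 of Pln. For Casq2 they were Frk (0.954), Myo19 (0.949), Ppif, a regulator of the mitochondrial permeability pore (0.936), and Tspan8 (0.926). For Trdn they were Osbpl2 (0.924), Dcaf12l1 (0.923), the orphan nuclear receptor gene Nr2f2 (0.912) and Cpe (0.896). Nr2f2 changed by -0.15, -1.84 and -1.36 in the 3 KO groups, in the order given for Nppb.

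The wider calcium system was followed in 57 measured genes of 6 lists, also chosen with earlier results of these data known. Nkx2-5 KO had 2 that rose and 4 that fell, Tbx5 KO 1 and 3, and the double KO 8 and 21. Over all genes 4.43%, 2.31% and 23.4% were called in the same 3 comparisons. The medians over the 57 genes were 0.0064, -0.045 and -0.088. In Nkx2-5 KO Bin1, which shapes the membrane tubules of muscle, rose from 8.88 ± 0.39 to 9.91 ± 0.17 (1.03 ± 0.18, adjusted p = 0.00875). Stim1, the sensor that opens calcium entry when the store is empty, rose by 0.89 ± 0.14 (adjusted p = 0.00581). Fkbp1a, which binds the release channel, fell by 0.58 ± 0.10 (adjusted p = 0.00874), and Letm1, a protein of ion exchange in mitochondria, fell by 0.58 ± 0.10 (adjusted p = 0.00762), a call lost by a narrow margin without Nkx2-5 KO replicate 1 (0.05). Casq1, the calsequestrin of skeletal muscle, fell by 0.62 ± 0.12 (adjusted p = 0.0166), a call lost without WT replicate 1 (0.0714) or Nkx2-5 KO replicate 3 (0.0545). Calm3, a calmodulin gene, fell by 0.58 ± 0.13 (adjusted p = 0.0272), lost on leaving out WT replicate 1, WT replicate 3, or the Nkx2-5 KO replicate numbered 1 or 3 (0.0596 to 0.114).

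In Tbx5 KO the phosphodiesterase gene Pde3a, whose enzyme degrades cyclic AMP near the pump, rose from 9.44 ± 0.27 to 11.01 ± 0.16 (1.57 ± 0.13, adjusted p = 5.47e-05). Akap6, which anchors protein kinase A at the store, fell by 0.99 ± 0.19 (adjusted p = 0.02), a call lost on leaving out Tbx5 KO replicate 1, Tbx5 KO replicate 3 or WT replicate 1 (0.0631 to 0.0755). Atp2a1, the pump of skeletal muscle, fell by 0.54 ± 0.11 (adjusted p = 0.0215) and Letm1 by 0.51 ± 0.10 (adjusted p = 0.0159). The Atp2a1 call was lost without WT replicate 1 or 3 or any Tbx5 KO array (0.054 to 0.0882), and that of Letm1 without WT replicate 1 or 3 or Tbx5 KO replicate 3 (0.0626 to 0.0715) and with only the arrays compared (0.0517). Tested against each other, Tbx5 KO was above Nkx2-5 KO in 4 of the 57 genes and below it in 2, beside 2.39% of all genes called. The named ones among them were higher for Pde3a (1.46, adjusted p = 6.88e-05), Casq1 (0.63, 0.0145) and Fkbp1a (0.59, 0.00632) and lower for Bin1 (-1.03, 0.0071). The other two, named after their values were seen, were Cav3, the caveolin of muscle (0.82), and Rcan2, a calcineurin regulator (-0.69).

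In the double KO, 6 of 8 luminal calcium binding genes fell and 0 rose, and 4 of 6 genes of mitochondrial calcium transport fell and 0 rose, where 14.4% of all genes fell and 9.05% rose. After quantile normalization again 2 of the 8 luminal genes and 4 of the 6 mitochondrial genes fell. Of all 57 genes 10 rose and 14 fell, where the values as deposited gave 8 and 21. Over all 19938 genes 2386 rose and 2244 fell after that normalization. The median was -0.40 for the luminal list (-0.18 after quantile normalization again) and -0.55 for the mitochondrial list (-0.47), where that of all genes was 0.064. Of 10 pump and pump regulator genes 6 fell and 1 rose, of 13 release and junction genes 2 rose and 2 fell, of 9 surface transport genes 4 rose and 1 fell, and of 11 cytosolic sensors 1 rose and 2 fell. After that normalization the release and junction genes stood at 4 higher and 1 lower, and the cytosolic sensors at 2 and 2, with a median that moved from -0.08 to 0.10. The largest changes were Casq1 (-1.04 ± 0.12, adjusted p = 9.81e-05), Pde3a (1.01 ± 0.13), Stim1 (0.998 ± 0.14), Calm3 (-0.97 ± 0.13), Akap6 (-0.91 ± 0.19) and Ppp1r1a, an inhibitor of protein phosphatase 1 (-0.83 ± 0.13). Their calls held under every alternative tried. The non-additive term was called for 0 of the 57 genes, beside 0.547% of all genes.

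**Figure D5:**
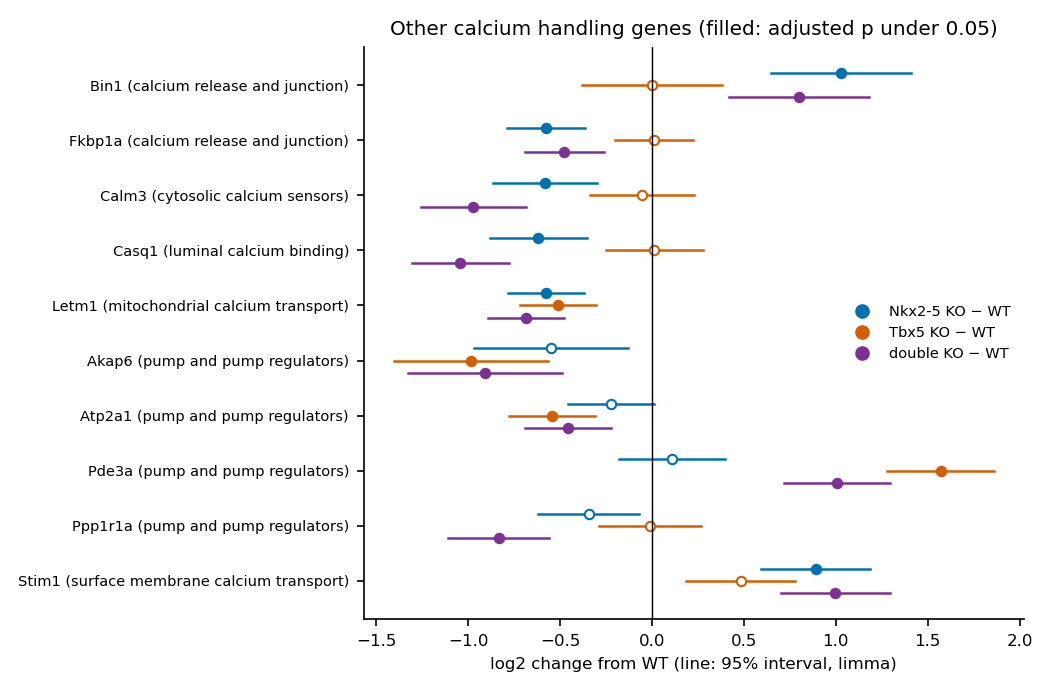
Log2 change from WT (horizontal axis, lines are 95% intervals from limma) of the 10 named genes of the wider calcium lists in the 3 KO groups (colours), with filled points where the adjusted p was under 0.05. Pde3a is filled at the right in Tbx5 KO (1.57) and double KO (1.01), and Bin1 and Stim1 are filled at the right in Nkx2-5 KO (1.03 and 0.89) and double KO.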

How the data were processed

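RNA of 12 samples of dissected embryonic heart was hybridised to Affymetrix arrays after amplification with a NuGEN kit, per the labels' protocols. The deposited values are log2 expression levels per probe set, made by the authors, with summarization, normalization and genome build not given in the sources used here, and they were used with no further normalization. Array number limits the precision, and no scan date was given.

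Of 35557 probe sets, 21789 carried exactly 1 symbol in the platform annotation, 1621 several and 12147 none. The brightest probe set over all arrays stood for a gene, giving 19938 genes with no filter on dim signal. Groups came from the labels. All 12 arrays entered 1 linear model with a mean for each of 4 groups, in limma 3.58.1 and R 4.3.3 (8 residual and 4.51 prior degrees of freedom, two-sided), and p was adjusted by Benjamini and Hochberg over all genes within each of 7 comparisons, with a threshold of 0.05. The scripts were tested on simulated data. As nothing says how separate the replicates are beyond their titles, p-values measure the spread between arrays.

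Members and gene lists were chosen with earlier results of these data known. Named genes were the 10 members, Nkx2-5 and Tbx5, and up to 6 called genes of the calcium lists by size in each KO against WT. To these were added the 4 genes most correlated with each of the 3 called members of largest change. That ranking left out members, predicted genes, RIKEN clones and genes named by a locus or accession number. Cell type lists covered cardiac muscle, endocardium, erythroid cells, foregut, neural crest, trophoblast and skeletal muscle. Replicate numbers did not pair the arrays: deviations from group means correlated at -0.27 to 0.21 in 18 same-numbered pairs. Alternatives were quantile normalization, centring, an intensity trend, array weights, only the arrays compared, a replicate block, a filter on dim signals, the mean of all probe sets and leaving out each array. Promoter sequences are RefSeq's, of GRCm38.p6. Tables and plots used Python 3.11.15, pandas 2.3.3, numpy 2.4.6, scipy 1.17.1 and matplotlib 3.10.9.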

Additional observations from a re-analysis of the deposited data

Results flagged for a closer look

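The change of Casq2 with a given loss differed by whether the other factor was present, a call that was not stable. Loss of Nkx2-5 went with a change of -1.31 where Tbx5 was present and of -0.05 where it was absent, and the test of that difference, the non-additive term, gave 1.26 ± 0.23 (limma adjusted p = 0.0339). The call was lost in 10 of 19 alternatives (adjusted p up to 0.0991), namely quantile normalization again, the replicate block and the omission of any of 8 arrays. The Casq2 levels in all 3 KO groups lie below the array medians.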

How the results depend on the processing

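Of 70 tests (10 genes, 7 comparisons), 17 were called, of which 9 held under every alternative and 8 were lost under at least 1. Another 11 became called under at least 1, and 0 changed direction as a call, over 20 alternatives for each pair of groups and 19 for the non-additive term. The held calls were Pln and Casq2 in each KO, Atp2a2 in Tbx5 KO against WT and against Nkx2-5 KO, and Hrc in the double KO. Calls in Nkx2-5 KO against WT numbered 4 with array weights instead of 2. Between Tbx5 KO and Nkx2-5 KO they numbered 1 with the mean of all probe sets, where 2.45% of all genes were called. Without single arrays the members called numbered 1 to 3 (1.27% to 2.64% of all genes). The 3 were Atp2a2, Trdn and Ryr2, without Nkx2-5 KO replicate 2 (2.15%). Between double KO and Nkx2-5 KO the members called numbered 1 with only the arrays compared (2.86% of all genes). They also numbered 1 with the mean of all probe sets (5.72%) and with the replicate block (4.38%). Without single arrays they numbered 0 to 3 (2.61% to 6.29%), with Pln, Atp2a2 and Trdn called when Tbx5 KO replicate 2 was left out (5.15%). Between double KO and Tbx5 KO the members called numbered 2 after quantile normalization again (11.2% of all genes) and with array weights (14.5%). An intensity trend gave 3 (11.2%). The replicate block (9.37%) and a fit of just the arrays compared (7.51%) gave 0. Without single arrays the members called numbered 0 to 1 (6.52% to 11.1%). The non-additive term had 0 calls after quantile normalization again (0.512% of all genes) and with the replicate block (0.306%). Without single arrays it had 0 to 1 (0.241% to 1.32%). The replicate block, by a number that does not pair the arrays, left the other counts within 1.5 times. The dimmer Slc8a1 probe set reversed the direction in Nkx2-5 KO (-0.76), an alternative chosen after seeing the data. The cause of these shifts was not tested. The share of all genes called in Nkx2-5 KO against WT was 4.43%, fell to 0.848% without Nkx2-5 KO replicate 1 and reached 10.7% with array weights. The table gives no detection call, so signal over background could not be read for Sln and Casq2.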

Other observations

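Markers of other cell types that the text has not described gave these values. Of 10 endocardial and endothelial markers, 4 fell in the double KO, where 14.4% of all genes fell (Npr3, Tek, Emcn and Nfatc1), led by the natriuretic peptide receptor gene Npr3 (-1.24) and the angiopoietin receptor gene Tek (-1.19). The median change of the 10 markers there was 0.012, and the highest was that of Kdr (0.43, not called). Of 10 foregut endoderm markers, Nkx2-5 KO had 2 that rose, Tbx5 KO 1 and the double KO 3, where 1.84%, 0.998% and 9.05% of all genes rose, with the endodermal transcription factor gene Sox17 in all of them (0.48, 0.66 and 0.52). Of 10 pharyngeal and neural crest markers, 0 were called in either single KO and 2 fell in the double KO. Of 10 skeletal muscle markers, 1 was called in Nkx2-5 KO (4.43% of all genes) and 4 in the double KO (23.4%), where 2 rose and 2 fell. Among them Mylpf, a myosin light chain of fast muscle, fell in Nkx2-5 KO by 1.65 and in the double KO by 1.75. In the double KO Tnnt3 also fell (-0.87), and Actn3 (0.41) and Myod1 (0.39) rose. Among cardiac muscle markers, Myh6, the alpha myosin heavy chain, fell by 0.81 and Actn2, the alpha actinin of the Z disc, by 0.66 in the double KO, where Myh7, Ttn and Tnnt2 rose by 0.40, 0.31 and 0.23.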
